A study of Homo sapiens with 8 samples.

Results

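RNA-seq read counts from MDA-MB-231 cells transfected with the siRNA siE1 were compared with those from the same cells transfected with siE2, a second siRNA against the same mRNA. The contrast was chosen by the siRNA named in the sample titles, and it takes 4 of the 8 libraries of the series, 2 for siE1 and 2 for siE2. Each of siE1, siE2 and siE3 was aimed at ESRRA, the gene of the orphan nuclear receptor ERRα, and siC was the control siRNA. The siE3 and siC libraries, 2 each, have no weight in the contrast. They shared in the estimate of the spread, and their levels are given beside those of siE1 and siE2. All 4 groups carried an siRNA and the transfection reagent INTERFERin, and all were grown in DMEM with serum. MDA-MB-231 is an established human line from a triple-negative breast cancer, so the libraries describe 1 cell line. The time after transfection, the siRNA doses and the siRNA sequences were not part of the sources used here.

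ERRα binds DNA without a known natural hormone and, with the PGC-1 coactivators, is known for driving genes of mitochondrial energy metabolism. An siRNA is a short RNA duplex of which a guide strand enters an Argonaute protein and directs cleavage of an mRNA it pairs with in full. Guides can also lower other mRNAs through pairing of a short seed near the guide's 5′ end with sites in 3′ UTRs, as microRNAs do, and those other mRNAs are a property of the sequence and not of the intended target. The comparison of a pair of siRNAs against 1 mRNA therefore asks how far their transcriptomes differ where the intended target is shared.

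The total counts were 22305207 and 25880548 in the siE1 libraries and 22688294 and 22669757 in the siE2 libraries. The libraries of siE1 differed from each other with a chi-square of counts over degrees of freedom of 3.21 and those of siE2 with 3.11, while the 4 pairs of an siE1 with an siE2 library gave 66.5 to 74.0. Nothing in the sources used here says whether the 2 libraries of a group came from separate transfections, and the p-values then speak only of the scatter among these libraries, which may be technical. Markers of the line were present, and those it is known to lack were at or near 0. VIM had 73202 to 92870 counts over the 4 libraries, CD44 13477 to 19140, AXL 43994 to 57265, CAV1 21260 to 33762 and EGFR 2497 to 3263, while ESR1 had 0 to 1, PGR 0 and CDH1 0 to 3. Of 15 blood cell markers 7 were at 0 in all 8 libraries, and the list's summed level of 416 to 433 CPM under siE1, 291 to 295 under siE2 and 215 to 226 under siC was nearly all CD68, a lysosomal protein. Fibroblast markers (2 of 11 at 0 in all libraries) summed to 8.72 to 10.1 CPM under siE1 and 12.1 to 13.8 under siE2, and endothelial markers (1 of 10 at 0) to 459 to 482 under siE1 and 473 to 476 under siE2, with TIE1, ENG and ESAM making up most of it. In such bulk libraries fewer cells of a type and less RNA per cell cannot be told apart.

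ESRRA itself, the intended target, had 228 and 271 counts under siE1 and 205 and 168 under siE2, with 187 and 192 under siE3 and 1379 and 1512 under siC. In CPM (counts scaled to a common library size, with TMM factors) these were 10.3 and 10.5 under siE1, 8.86 and 7.25 under siE2, 8.55 and 8.31 under siE3 and 62.9 and 64.8 under siC. All siE1 and siE2 libraries lay far under both siC libraries, and 16.3% of the siC level remained with siE1 and 12.6% with siE2. The siE1 and siE2 libraries did not overlap for ESRRA, as for 79% of all tested genes. Between the siRNAs the log2 difference, siE1 minus siE2, was 0.37 (SE 0.108, edgeR adjusted p = 0.0092). This call rests on 1 library: without siE2 replicate 2 the difference was 0.23 (edgeR adjusted p = 0.14), and without siE2 replicate 1 it was 0.53. Its paralogs were nearly silent, with 0 to 2 counts per library for ESRRB and ESRRG.

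Over 13395 tested genes, 7654 differed between siE1 and siE2 at an edgeR adjusted p below 0.05, which is 57.1% of those tested. Of these, 3819 were higher under siE1 (28.5% of all tested) and 3835 were lower (28.6%). The median size of a called difference was 0.43 on the log2 scale. With at least 1.5-fold also required, 2556 genes were left (19.1%), 1030 higher (7.69%) and 1526 lower (11.4%). At 2-fold 322 were higher and 595 lower, and at 4-fold 31 were higher and 39 lower. Side by side with this, 6529 genes were called between siE1 and siE3 and 6491 between siE2 and siE3, comparisons that share libraries with this one. These shares are the background against which every count of a gene group below is to be read.

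**Figure D1:**
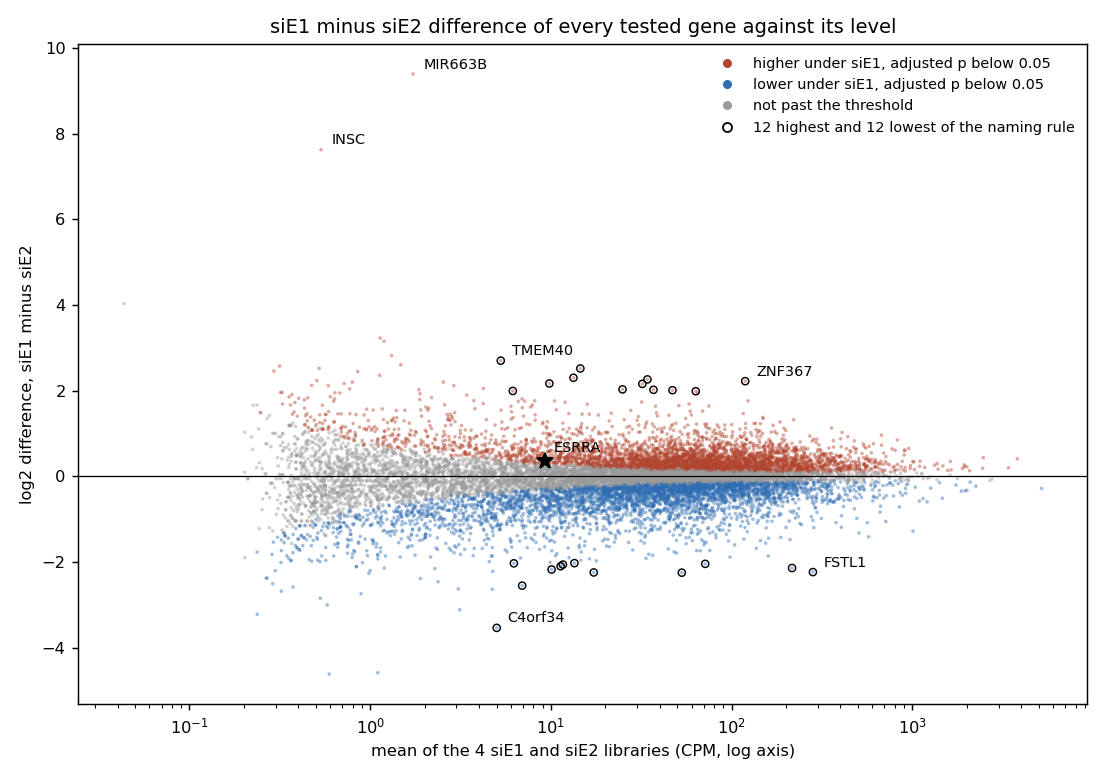
Log2 difference siE1 minus siE2 (y axis) of each of the 13395 tested genes against its mean level in the 4 siE1 and siE2 libraries (x axis, CPM, log scale), with called genes in red (higher under siE1) and blue (lower) and the 24 genes of the naming rule ringed. ESRRA, the star, lies at 0.37, inside the cloud, while the ringed genes lie at 1.99 or more or at -2.02 or less. MIR663B and INSC, with 0 counts in both siE2 libraries, have fitted values that are no measure of size.

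The genes with the highest differences were taken among those at 5 CPM or more. TMEM40 had 8.81 and 9.5 CPM under siE1 and 1.51 and 1.29 CPM under siE2, with 2.46 and 3 CPM under siC. Its log2 difference was 2.70 (SE 0.172, edgeR adjusted p = 4.4e-09). SH2D2A, an adaptor protein known from T cells, had 24.1 and 25.4 CPM under siE1 and 4.02 and 4.62 CPM under siE2, with 7.3 and 9.08 CPM under siC, a difference of 2.52. In both genes every siE1 library lay above both siC libraries, and every siE2 library below them. PTBP2, a splicing regulator best known from neurons, had 55.1 and 49.7 CPM under siE1 and 11.8 and 11.7 CPM under siE2, with 14.3 and 15 CPM under siC (2.16, SE 0.083, edgeR adjusted p = 3.1e-11). EFR3B, which helps anchor a lipid kinase at the plasma membrane, had 21.3 and 23 CPM under siE1 and 3.93 and 5.05 CPM under siE2, with 6.94 and 6.13 CPM under siC (2.30). For these genes the siE2 libraries were nearer to siC than the siE1 libraries were. The reverse held for CDC37L1, a relative of an HSP90 co-chaperone, which had 16 and 16.1 CPM under siE1 and 3.24 and 3.88 CPM under siE2, with 14.1 and 12.9 CPM under siC (2.17, edgeR adjusted p = 1.2e-09). GPD1L, related to glycerol-3-phosphate dehydrogenase, had 54.3 and 59 CPM under siE1 and 11.6 and 12 CPM under siE2, with 69.6 and 64.4 CPM under siC (2.26, edgeR adjusted p = 9.2e-12). JKAMP, a membrane protein that binds the kinase JNK, had 99.7 and 103 CPM under siE1 and 26.8 and 24.2 CPM under siE2, with 81 and 87.9 CPM under siC (1.99). In these 3 genes siE2 was the low group, and siE1 lay near the control.

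CDKN1A, the cyclin-dependent kinase inhibitor p21, was among the same 12 genes. It had 77.3 and 73.6 CPM under siE1 and 19.2 and 18.1 CPM under siE2, with 29.3 and 32.8 CPM under siC, a log2 difference of 2.01 (SE 0.0738, edgeR adjusted p = 2.0e-11), and its libraries fell on both sides of siC. SLC40A1, the iron exporter ferroportin, had 10 and 9.65 CPM under siE1 and 2.08 and 2.85 CPM under siE2, with 6.94 and 8.18 CPM under siC (2.00, edgeR adjusted p = 1.5e-07). The zinc finger gene ZNF367 had 205 and 186 CPM under siE1 and 43 and 40.8 CPM under siE2, with 98.1 and 104 CPM under siC (2.22). Both again had the control between the siRNAs. ENDOD1 (2.02) and C15orf57, now CCDC32 (2.03), completed the 12.

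At the low end of the differences, FSTL1, a secreted glycoprotein, had 97.5 and 100.2 CPM under siE1 and 459 and 469.9 CPM under siE2, with 498 and 482 CPM under siC, a log2 difference of -2.23 (SE 0.0442, edgeR adjusted p = 5.4e-14). TFB1M, a methyltransferase of mitochondrial ribosomal RNA, had 4.38 and 4.63 CPM under siE1 and 19.6 and 18 CPM under siE2, with 17.7 and 19.3 CPM under siC (-2.06, edgeR adjusted p = 7.5e-10). FAM117A had 2.12 and 1.93 CPM under siE1 and 12.1 and 11.6 CPM under siE2, with 8.12 and 8.18 CPM under siC (-2.55). In FSTL1 and TFB1M siE2 was near the control level and siE1 far under it, with log2 fold changes against siC of -2.31 for siE1 and -0.08 for siE2 in FSTL1 and of -2.03 for siE1 and 0.02 for siE2 in TFB1M. The opposite arrangement was seen in TIMP3, an inhibitor of matrix metalloproteases, with 28.8 and 27.1 CPM under siE1 and 119 and 110.3 CPM under siE2, with 30.8 and 30.8 CPM under siC (-2.04, edgeR adjusted p = 3.4e-12). FILIP1L had 6.42 and 5.67 CPM under siE1 and 32.2 and 24.7 CPM under siE2, with 4.11 and 4.63 CPM under siC (-2.24). There siE1 lay nearer to siC, and siE2 was far above it.

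IGFBP3, a secreted binding protein of insulin-like growth factors, had 81.6 and 78.5 CPM under siE1 and 353 and 351 CPM under siE2, with 197 and 204 CPM under siC (-2.14, edgeR adjusted p = 9.5e-14). TMEM2, now CEMIP2, a cell surface hyaluronidase, had 19.6 and 17.4 CPM under siE1 and 91.8 and 83.2 CPM under siE2, with 48.7 and 49 CPM under siC (-2.24). C4orf34, now SMIM14, had 0.949 and 0.656 CPM under siE1 and 9.51 and 8.93 CPM under siE2, with 1.69 and 1.07 CPM under siC, and at -3.53 (SE 0.215, edgeR adjusted p = 2.8e-09) the lowest value of the 24 named genes. In these 3 genes siC lay between the siRNAs. ADA, the enzyme adenosine deaminase, had 4.38 and 4.21 CPM under siE1 and 18.5 and 18.1 CPM under siE2, with 8.63 and 7.03 CPM under siC (-2.09). SLFN5 (-2.17), the teneurin ODZ2, now TENM2 (-2.03), and P2RX4, an ATP-gated ion channel (-2.02), were the rest of the 12, and all had siC between the siRNAs too. Each of the 24 genes kept its direction and its call in all 17 other settings tried.

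**Figure D2:**
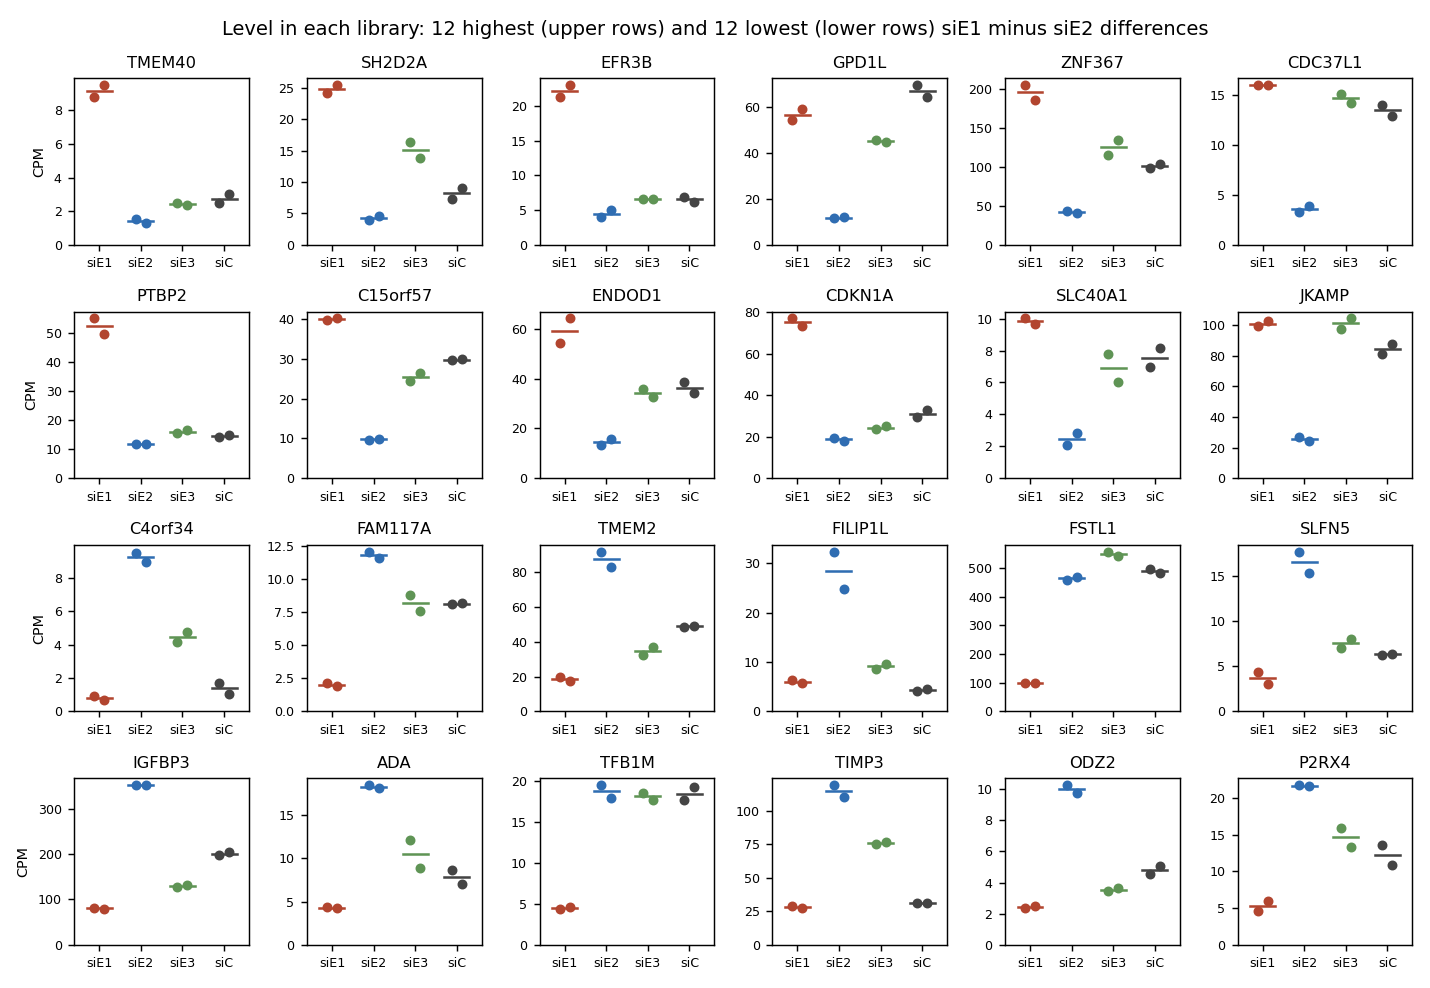
Level in each library (y axis, CPM, from 0) of the 12 genes with the highest and the 12 with the lowest siE1 minus siE2 difference, with a point per library and a line at the mean of the 2 libraries of siE1, siE2, siE3 and siC. The 2 points of a group lie close together beside the gap between siE1 and siE2. The control sits near siE1 in some panels (JKAMP, TIMP3) and near siE2 in others (FSTL1, TFB1M). It lies between them in CDKN1A and IGFBP3, for example, above both in GPD1L and below both in FILIP1L.

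Where the siC mean lay was counted over all genes that differed by at least 1.5-fold. Among the 1030 higher genes the siC mean was between the siE1 and siE2 means in 615 (59.7%), above both in 245 (23.8%) and below both in 170 (16.5%). Among the 1526 lower genes it was between them in 1014 (66.4%), above both in 189 (12.4%) and below both in 323 (21.2%). Over all tested genes it was between them in 35.2%, above both in 32.6% and below both in 32.1%. The siE3 mean was between them in 68.4% of the higher and 72.9% of the lower genes, and in 40.6% of all tested. A wide gap leaves more room between 2 means than a narrow one, so these shares describe the genes and are no test. A different set, the called genes at 5 CPM or more without overlap and with no fold limit, held 3481 higher and 3246 lower genes. Of those 3481, 934 had both siC libraries below the siE1 and above the siE2 libraries. Of those 3246, 1040 had them above siE1 and below siE2. How many of all tested genes had such an order was not counted. Both counts therefore lack a background share and are only a description.

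The 3′ UTRs of the differing genes were searched for short words, with sequences from GENCODE v29 (GRCh38, another build than the authors' hg19, so that no coordinates are given). For 12340 of the tested genes (92.1%) a 3′ UTR was found, and 15757 words of 7 bases, each present in at least 100 genes, were ranked. For each word the shift in the siE1 minus siE2 difference of the genes holding it was taken, after 3′ UTR length and GC content. The ranking was by this shift divided by its standard error, so a word with a larger shift can rank lower. The words were ranked on the same differences that they are then set beside, so what follows is a description. The word at the low end was GACCAGA (a shift of -0.22, in 9.53% of all searched genes), followed by TGACCAG (-0.16, in 10.9%), and they overlap in the run TGACCAGA. At the high end stood TCTGCTA (0.20, in 9.82%) and ATCTGCT (0.16), which overlap in the run ATCTGCTA. The words were read on the sense strand of the mRNA. The runs are printed as they occur in ESRRA and in genes named above, 30 bases each with the run in capitals, because they join the 2 top-ranked words at either end.
ESRRA, chromosome 11, plus strand, before the 3′ UTR: ctgtcgctgtcTGACCAGAtgtcagtactg
C4orf34, chromosome 4, minus strand: acgaacgaagaTGACCAGAgtactcttaac
FSTL1, chromosome 3, minus strand: caaaaacaagaTGACCAGAtttgatctcag
TFB1M, chromosome 6, minus strand: acaaatgccaaTGACCAGAtgtgacttatt
TIMP3, chromosome 22, plus strand: gatgcttgtgtTGACCAGAtgttcctgagt
SLFN5, chromosome 17, plus strand: ttcctctatctTGACCAGAagcatctaaga
EFR3B, chromosome 2, plus strand: attcctcttcaTGACCAGAaaatggcagct
ESRRA, before the 3′ UTR, 7 of the 8 letters: actggtgtctcATCTGCTggtggttgagcc
GPD1L, chromosome 3, plus strand: cactggttcttATCTGCTAgccttttacat
CDC37L1, chromosome 9, plus strand: ttctgggaggcATCTGCTAcagtctctttt
JKAMP, chromosome 14, plus strand: agggtaatattATCTGCTAcactggaaggc

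The ESRRA mRNA used, of 2283 bases with a 3′ UTR of 777, held TGACCAGA 1 time, at position 999 from its 5′ end, and ATCTGCTA 0 times. ATCTGCT, the shorter word, stood in it 1 time, at position 833. Both positions lie before the 3′ UTR. C4orf34, FSTL1, TFB1M, TIMP3 and SLFN5, all among the 12 lowest under siE1, held TGACCAGA in the 3′ UTR, and GPD1L, CDC37L1 and JKAMP, among the 12 highest, held ATCTGCTA. The match was not complete. EFR3B and ENDOD1 held TGACCAGA and PTBP2 one of its 7-base words, yet all 3 were higher under siE1, and the lower gene ODZ2 held a word of the other pair. FSTL1 and ENDOD1 held words of both pairs. Of the 24 genes 9 held none of these words, among them CDKN1A, ZNF367, TMEM2 and ADA. Of the 5 lowest genes with the first run, siE1 was the group further from siC in FSTL1 and TFB1M, and siE2 was in TIMP3, C4orf34 and SLFN5. Against siC, C4orf34 stood at -0.79 for siE1 and 2.74 for siE2, and SLFN5 at -0.78 for siE1 and 1.39 for siE2. In GPD1L, CDC37L1 and JKAMP, with the second run, siE2 was the group further from siC.

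Over all searched genes, 16.3% held a word of the first pair (GACCAGA or TGACCAG). The share was 29.7% (405 of 1365) among genes at least 1.5-fold lower under siE1 and 11.4% (109 of 954) among those at least 1.5-fold higher. A word of the second pair (TCTGCTA or ATCTGCT) was in 18.4% of all searched genes, in 32.9% (314 of 954) of the higher and in 15.8% (216 of 1365) of the lower ones. Neither pair was held by 70.6% of all searched genes, by 61.5% of the higher and by 62.1% of the lower ones, so most of the strongly differing genes held neither. The 1362 genes with the first pair only had a median difference of -0.17, and 46.0% of them were called lower. The 1614 genes with the second pair only had a median of 0.13, and 42.4% were called higher. The 8711 genes with neither had a median of 0.01, and 56.7% of them were still called, 29% higher and 27.7% lower. Genes with the full first run (381) had a median of -0.23 and genes with the full second run (308) one of 0.22. Against siC, the first-run genes had a median of -0.22 for siE1 and of -0.0009 for siE2, and the second-run genes a median of 0.03 for siE1 and of -0.16 for siE2. Genes with these words had longer 3′ UTRs, with a median length of 2145 bases for the first pair only and 2370 for the second, against 779 for genes with neither. Whether the words pair with siE1 or siE2 was not tested, as the siRNA sequences were not among the sources used.

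**Figure D3:**
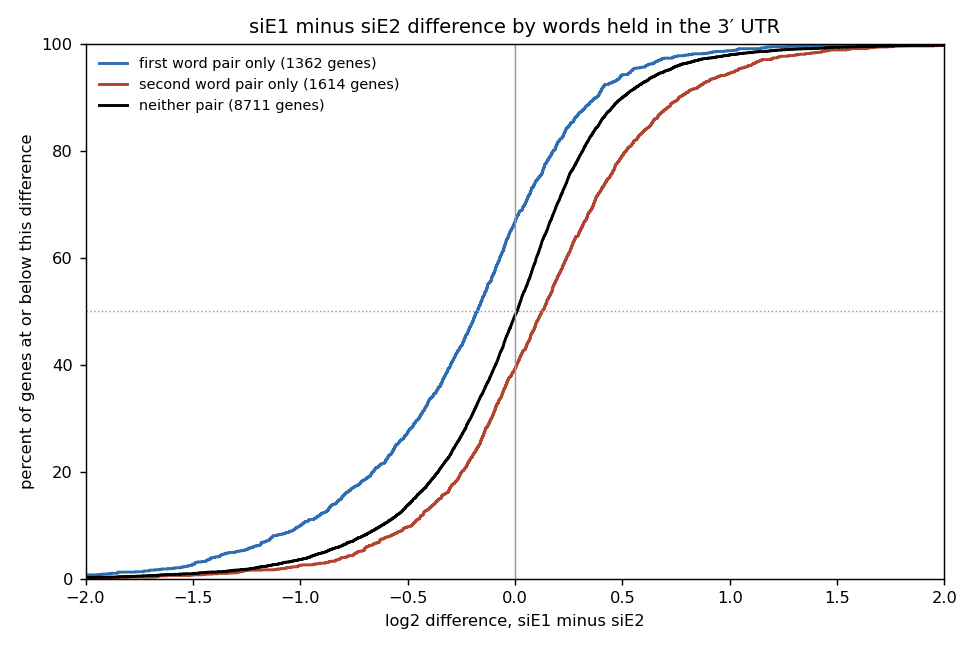
Percent of genes (y axis) at or below each siE1 minus siE2 log2 difference (x axis), for genes whose 3′ UTR held only the first word pair, only the second or neither. At 50% the curves cross at -0.17 for the first pair and 0.13 for the second, against 0.01 for neither.

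Gene lists of known pathways and complexes (50 lists, 1424 different genes, 1291 of them tested) were then counted. The share of all tested genes, 28.5% higher and 28.6% lower with a median of -0.0048, is the measure for each count, and no list was given a test of its own.

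**Figure D4:**
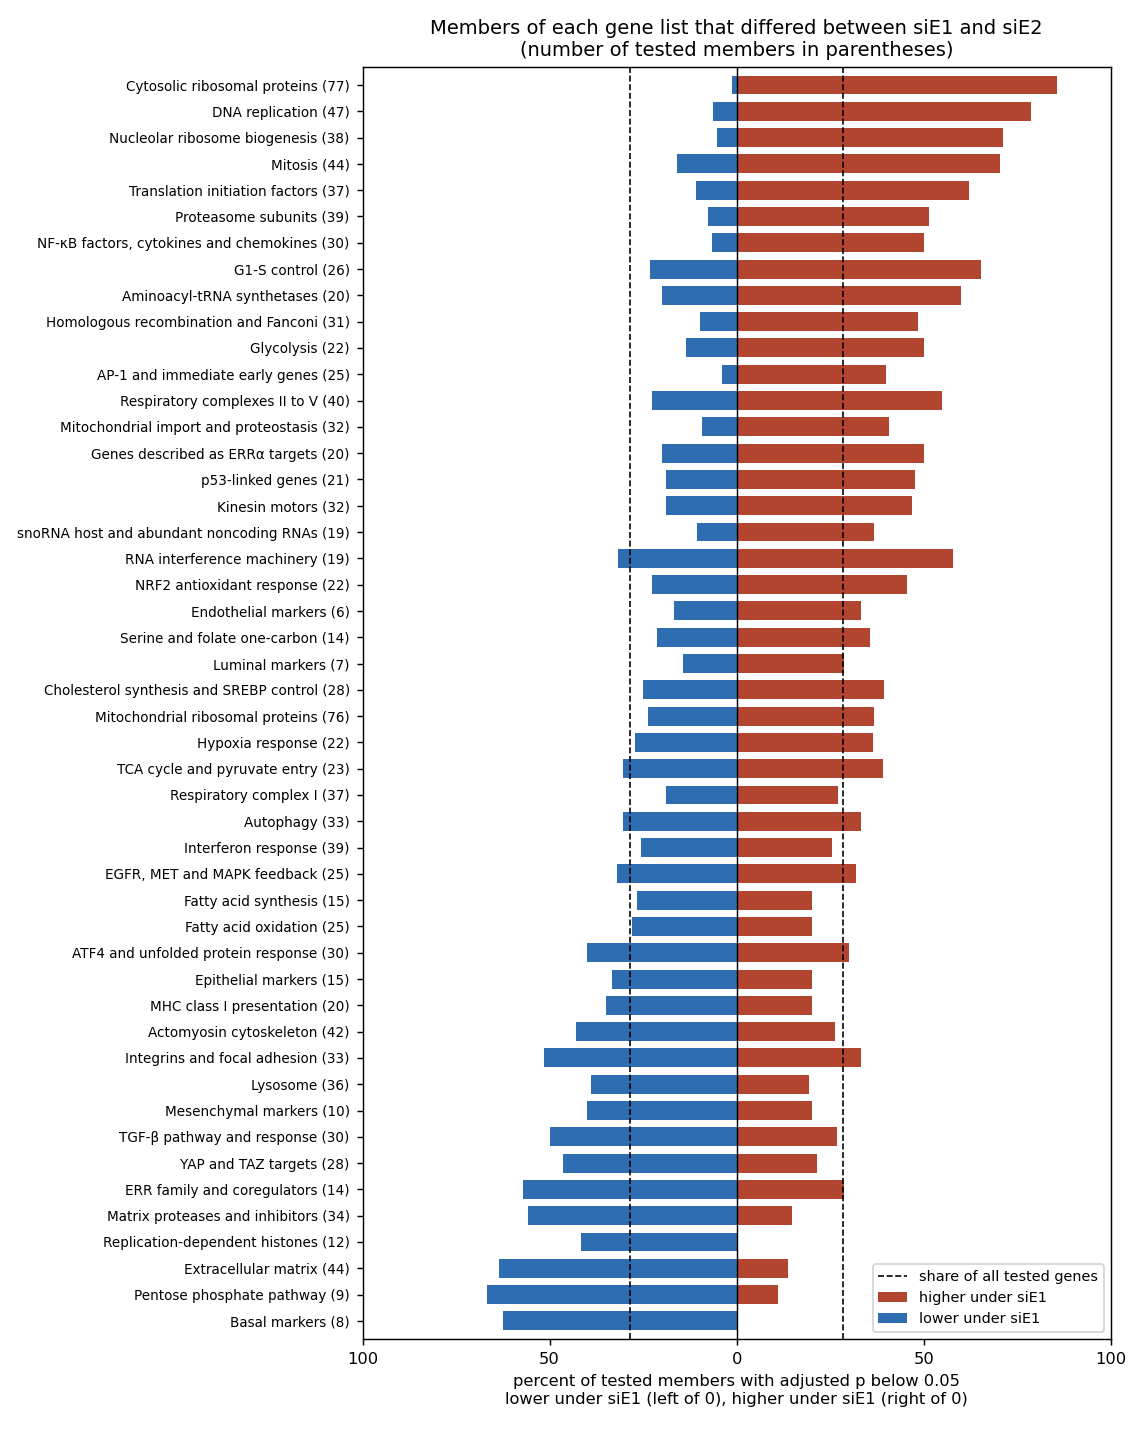
Percent of the tested members of each list with 5 or more tested members that were called higher (right of 0, red) or lower (left of 0, blue) under siE1 than under siE2, with dashed lines at the 28.5% and 28.6% of all tested genes. Ribosomal protein, replication, nucleolar and mitosis genes stand at the top, at 70.5% to 85.7% higher, and matrix, pentose phosphate and basal marker genes at the bottom, at 62.5% to 66.7% lower.

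Genes of protein synthesis were mostly higher under siE1. Of the cytosolic ribosomal proteins, 66 of 77 tested members were higher under siE1 (85.7%) and 1 lower (1.3%), with a median of 0.23. RPL15, of the large subunit, had 609.8 and 571 CPM under siE1, against 384 and 374 CPM under siE2 (0.64, edgeR adjusted p = 1.6e-08). RPL27A (0.70) and RPL22 (0.61) differed alike, and the 2 siRNAs' libraries did not overlap, as for 79% of all tested genes. The 1 lower member was RPS20, of the small subunit, with 189 and 183 CPM under siE1, against 381 and 375 CPM under siE2 (-1.02, SE 0.0425, edgeR adjusted p = 5.9e-11). Ribosomal protein genes have many processed copies, so their values are uncertain: no source used here says how reads that match several places were counted. The sizes were small beside those of the 24 genes above: 8 of 77 members were higher by 1.5-fold or more. Against siC the list's medians were -0.08 for siE1 and -0.32 for siE2.

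Nucleolar genes of ribosome assembly ran the same way. In this list 27 of 38 tested members were higher under siE1 (71.1%) and 2 lower (5.26%), with a median of 0.28. UTP20, of the small-subunit processome, had 146 and 146 CPM under siE1, against 75.1 and 76.7 CPM under siE2 (0.95, edgeR adjusted p = 1.4e-07), and RRN3, an initiation factor of RNA polymerase I, had 55.2 and 55.6 CPM under siE1, against 34.1 and 32.5 CPM under siE2 (0.73). The exception RRP12, which helps export pre-ribosomes, had 26.8 and 28.8 CPM under siE1, against 50.3 and 48.1 CPM under siE2 (-0.82). Of the translation initiation factors, 23 of 37 tested members were higher under siE1 (62.2%) and 4 lower (10.8%), with a median of 0.19. EIF4EBP2, which holds back the cap-binding factor, had 266 and 275 CPM under siE1, against 129.6 and 128 CPM under siE2 (1.07, edgeR adjusted p = 4.6e-11), and EIF3L, a subunit of eIF3, had 169 and 159 CPM under siE1, against 244 and 243 CPM under siE2 (-0.57). Aminoacyl-tRNA synthetases, which charge tRNAs, stood at 12 of 20 higher and 4 lower. Their arginine and tyrosine enzymes RARS (1.12, edgeR adjusted p = 8.9e-11) and YARS (0.91) were higher and the tryptophan enzyme WARS was lower (-0.52). Among proteasome subunits 20 of 39 higher and 3 lower were called (0 or 1 lower without either siE1 library or siE2 replicate 1), with the catalytic subunit PSMB5 at 0.61 (edgeR adjusted p = 3.0e-08).

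Genes of DNA replication and cell division were also mostly higher under siE1. Of the replication list, 37 of 47 tested members were higher under siE1 (78.7%) and 3 lower (6.38%), with a median of 0.30. PCNA, the sliding clamp, had 212 and 205 CPM under siE1 and 111 and 117 CPM under siE2, with 175 and 184 CPM under siC (0.87, edgeR adjusted p = 1.5e-09). MCM10, which helps start the replication fork, had 104 and 100.4 CPM under siE1 and 50.4 and 56.8 CPM under siE2, with 108 and 110.1 CPM under siC (0.93). FEN1, the flap endonuclease, had 236 and 220.3 CPM under siE1 and 134 and 138 CPM under siE2, with 222 and 237 CPM under siC (0.74). In PCNA siC lay between the siRNAs, and in MCM10 and FEN1 siE1 was close to siC and siE2 under it. Of the mitosis genes, 31 of 44 tested members were higher under siE1 (70.5%) and 7 lower (15.9%), with a median of 0.27. CDC25A, a phosphatase that activates cyclin-dependent kinases, had 109 and 96.3 CPM under siE1 and 37.1 and 34.2 CPM under siE2, with 107 and 115 CPM under siC (1.53, edgeR adjusted p = 2.8e-10). ANLN, an actin-binding protein of cytokinesis, was at 0.73, the checkpoint kinase BUB1 at 0.69 and separase, ESPL1, at 0.82. The 7 lower mitosis members were 3 to 4 when siE1 replicate 2 or either siE2 library was left out.

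Control genes of the G1-S step did not all point one way. There 17 of 26 tested members were higher under siE1 (65.4%) and 6 lower (23.1%), with a median of 0.33. CDK6 had 229.7 and 238 CPM under siE1 and 110.4 and 116 CPM under siE2, with 133 and 128 CPM under siC (1.05, edgeR adjusted p = 8.2e-10), CDK2 was at 0.61, and the inhibitor CDKN1A at 2.01 was higher as well, while the inhibitor CDKN1B, p27, was lower, with 57.2 and 54.4 CPM under siE1 and 94.3 and 84.1 CPM under siE2, with 65.3 and 65.2 CPM under siC (-0.68). Of the homologous recombination and Fanconi genes 15 of 31 higher and 3 lower were called, with the checkpoint kinase CHEK1 at 0.85 (edgeR adjusted p = 2.5e-09). Replication-dependent histones, which are made in S phase, did not follow the replication genes: of 36 genes 12 could be tested, 0 were higher and 5 lower, with a median of -0.63. HIST1H2BK had 15.2 and 13.1 CPM under siE1 and 56.8 and 49.2 CPM under siE2, with 49.5 and 56.3 CPM under siC (-1.91, edgeR adjusted p = 3.8e-10), and HIST1H1C, a linker histone, was at -0.86. Histone genes have near-identical copies, and their mRNAs mostly lack the poly(A) tail that many library protocols select. Which selection was used is not given in the sources. The histone median moved to -1.19 with a stricter filter on low counts, and to between -0.79 and -0.91 without siE1 replicate 1, siE1 replicate 2 or siE2 replicate 2.

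**Figure D5:**
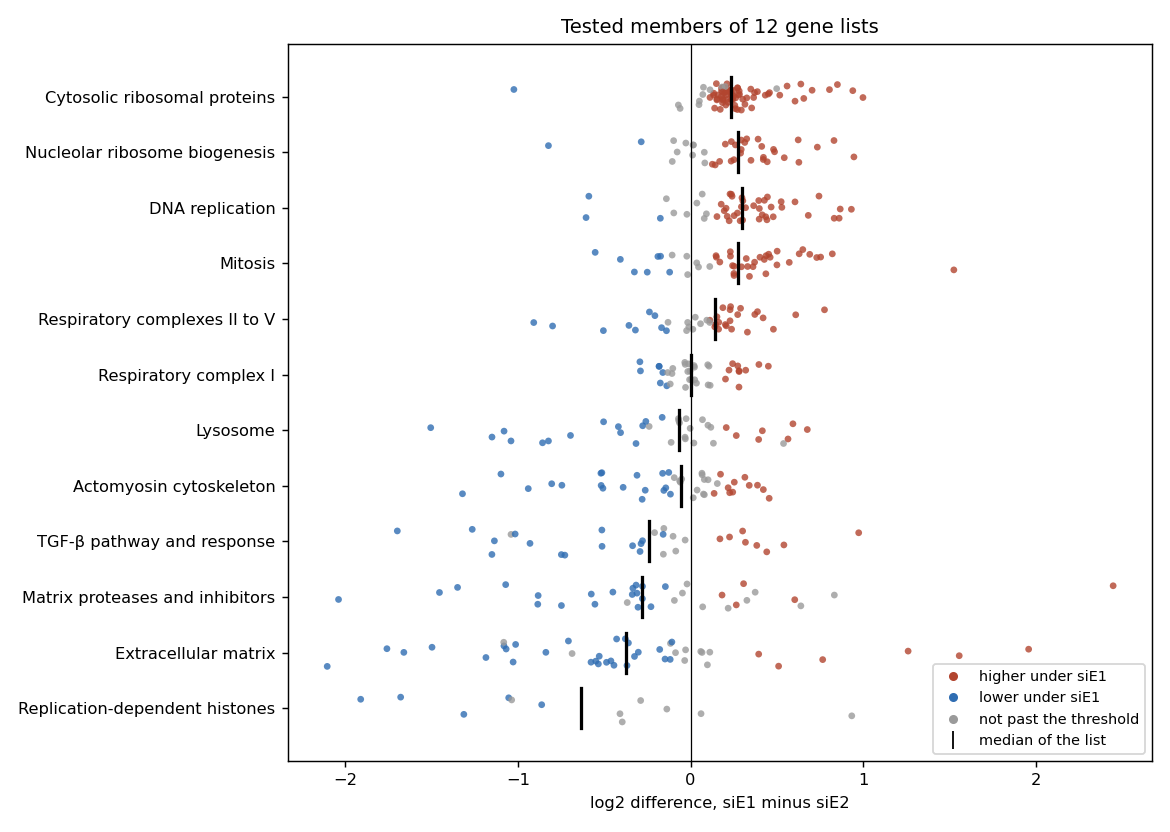
Log2 difference siE1 minus siE2 (x axis) of each tested member of 12 lists (rows), red where higher and blue where lower under siE1 at an adjusted p below 0.05, grey where not, with a black bar at the list's median. The ribosomal, nucleolar, replication and mitosis rows have medians of 0.23 to 0.30 with few blue points, and the extracellular matrix row has a median of -0.37 with members from -2.10 to 1.96.

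ERRα's partners and the genes it is known to drive split between the siRNAs. Among 14 tested members of the list of ERR receptors and coregulators, with ESRRA counted, 4 were higher and 8 lower (median -0.23). The coactivators of the PGC-1 family went in different directions. PPARGC1B had 21.7 and 22 CPM under siE1 and 11.6 and 8.24 CPM under siE2, with 17.5 and 19.4 CPM under siC (1.14, edgeR adjusted p = 1.2e-06). PPARGC1A had 3.03 and 3.36 CPM under siE1 and 6.01 and 6.6 CPM under siE2, with 4.43 and 4.11 CPM under siC (-0.98, edgeR adjusted p = 4.1e-05). PPRC1, the third relative, had 115 and 109 CPM under siE1 and 77.4 and 75.3 CPM under siE2, with 138 and 151 CPM under siC (0.55). The deacetylase SIRT1 was lower, with 34.7 and 32.4 CPM under siE1 and 62.1 and 58 CPM under siE2, with 44.9 and 50.3 CPM under siC (-0.84, edgeR adjusted p = 1.6e-07), as were HDAC3 (-0.62) and the coactivators NCOA2 (-0.55) and NCOA3 (-0.51), and the corepressor NCOR1 (-0.26).

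Of 20 tested genes known from other work as targets of ERRα, a list that holds ESRRA, 10 were higher and 4 lower under siE1 (median 0.11), with 2 lower without siE1 replicate 2 or siE2 replicate 2. ATP5B, the catalytic β subunit of ATP synthase, had 987 and 951 CPM under siE1 and 631 and 639 CPM under siE2, with 1250.0 and 1301 CPM under siC, a difference of 0.61 (SE 0.04, edgeR adjusted p = 6.1e-09). Both siRNAs left it under siC, siE2 further, with log2 fold changes against siC of -0.40 for siE1 and -1.01 for siE2. MFN2, which fuses mitochondria, had 168 and 162 CPM under siE1 and 115 and 114 CPM under siE2, with 206 and 217 CPM under siC (0.53, edgeR adjusted p = 4.4e-07). SOD2, the mitochondrial superoxide dismutase, had 125 and 119 CPM under siE1 and 79.3 and 76.1 CPM under siE2, with 96.8 and 96.3 CPM under siC (0.65), with siC between the siRNAs. Values of CS, citrate synthase (-0.07), SDHB (0.01), MDH2 (0.05) and VEGFA (-0.01) did not pass the threshold.

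The respiratory chain held opposite differences within 1 complex. Of complexes II to V, 22 of 40 tested members were higher under siE1 (55%) and 9 lower (22.5%), with a median of 0.14. COX4I1, a subunit of cytochrome c oxidase, had 109 and 111 CPM under siE1 and 203 and 209 CPM under siE2, with 252 and 265 CPM under siC (-0.91, edgeR adjusted p = 3.8e-10), and COX6A1 of the same complex had 30.7 and 30.5 CPM under siE1 and 52 and 54.5 CPM under siE2, with 55.7 and 58.3 CPM under siC (-0.80). COX5A, also of that complex, was higher under siE1, with 112 and 106 CPM under siE1 and 81.1 and 82 CPM under siE2, with 124 and 126 CPM under siC (0.42, edgeR adjusted p = 2.7e-06). In COX4I1 and COX6A1 siE1 was the group furthest under siC, and in COX5A siE2 was. ATP5L of ATP synthase had 124 and 114 CPM under siE1 and 64.4 and 74.4 CPM under siE2, with 147 and 154 CPM under siC (0.78). Complex I differed little: 10 of 37 tested members were higher under siE1 (27%) and 7 lower (18.9%), with a median of 0.00, and no member reached 1.5-fold. Its 7 lower members were 2 to 4 with DESeq2, with a replicate block or without siE1 replicate 2, siE2 replicate 1 or siE2 replicate 2. NDUFA6 had 78.2 and 74.8 CPM under siE1 and 56.4 and 55.5 CPM under siE2, with 73.5 and 78.4 CPM under siC (0.45).

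Of the other mitochondrial lists, import and proteostasis genes stood at 40.6% higher and 9.38% lower, beside 28.5% and 28.6% of all tested genes, and the TCA cycle and mitochondrial ribosomal protein lists were nearer to these shares. In the TCA cycle 9 of 23 higher and 7 lower were called, with OGDH, the oxoglutarate dehydrogenase, at 0.68 (edgeR adjusted p = 1.2e-08). Of the mitochondrial ribosomal proteins 28 of 76 higher and 18 lower were called, MRPS22 at -0.79 and MRPS18A at 0.83. Among import and proteostasis genes (13 of 32 higher and 3 lower, or 5 lower with a replicate block over the 4 libraries alone), the fission GTPase DNM1L had 156 and 155 CPM under siE1, against 83.5 and 86.1 CPM under siE2 (0.87, edgeR adjusted p = 8.1e-10), the import receptor TOMM22 was at 0.91 and the chaperonin HSPD1 at 0.70, while the HSP70 chaperone HSPA9 was at -0.56.

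In glycolysis, 11 of 22 tested members were higher under siE1 (50%) and 3 lower (13.6%), with a median of 0.13. The 3 lower were 5 without either siE3 library. Hexokinase HK2 had 187 and 194 CPM under siE1 and 95.6 and 103 CPM under siE2, with 214 and 206 CPM under siC (0.94, edgeR adjusted p = 2.8e-09), triose phosphate isomerase TPI1 had 530.2 and 509 CPM under siE1 and 277 and 289 CPM under siE2, with 474 and 506 CPM under siC (0.88), and PGK1, phosphoglycerate kinase, was at 0.68. In the pentose phosphate pathway the counts ran the other way, 1 of 9 higher and 6 lower (median -0.23). TALDO1, the enzyme transaldolase, had 200.2 and 195 CPM under siE1 and 240.1 and 237 CPM under siE2, with 235 and 228 CPM under siC (-0.27, edgeR adjusted p = 5.8e-05). Fatty acid oxidation (5 of 25 higher and 7 lower) and fatty acid synthesis (3 of 15 higher and 4 lower) did not exceed the background in either direction. Among the synthesis genes, the elongase ELOVL5 had 467 and 471 CPM under siE1 and 256 and 270.2 CPM under siE2, with 263 and 276 CPM under siC (0.83, edgeR adjusted p = 5.9e-10), while ACSS2, which makes acetyl-CoA from acetate, had 27.7 and 28.2 CPM under siE1 and 55.5 and 61.5 CPM under siE2, with 50.7 and 49.2 CPM under siC (-1.06). Cholesterol synthesis genes stood at 11 of 28 higher and 7 lower, with the isomerase IDI1 at 0.57 and MSMO1 at -0.42.

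Of the lysosome list, 7 of 36 tested members were higher under siE1 (19.4%) and 14 lower (38.9%), with a median of -0.07. SCARB2, a lysosomal membrane protein, had 49.7 and 50.4 CPM under siE1 and 147 and 137 CPM under siE2, with 89.4 and 89.5 CPM under siC (-1.50, edgeR adjusted p = 3.6e-11). CTSD, the protease cathepsin D, had 375 and 349 CPM under siE1 and 804 and 726 CPM under siE2, with 313 and 319 CPM under siC (-1.08), and the acid lipase LIPA was at -0.86. In CTSD and LIPA both siRNAs stood above siC, siE2 further. Autophagy genes (11 of 33 higher and 10 lower) were near the background, with 7 higher under library size only and without siE1 replicate 2 or siE2 replicate 1, and with the cargo receptor NBR1 at -0.87.

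Stress and redox genes held some of the larger single differences. HMOX1, heme oxygenase, had 93.2 and 81.4 CPM under siE1 and 33.2 and 31.2 CPM under siE2, with 27 and 29.2 CPM under siC (1.44, edgeR adjusted p = 4.0e-10), and GCLM, the modifier of the first enzyme of glutathione synthesis, had 222 and 208 CPM under siE1 and 83.8 and 81.3 CPM under siE2, with 128 and 134 CPM under siC (1.38). Their list of NRF2 targets had 10 of 22 higher and 5 lower. In the hypoxia list (8 of 22 higher and 6 lower, or 5 higher without siE2 replicate 2), BNIP3L, a mitophagy receptor, had 44 and 39.8 CPM under siE1 and 156 and 152 CPM under siE2, with 85.4 and 85.8 CPM under siC (-1.88, edgeR adjusted p = 3.1e-12), and EPAS1, the transcription factor HIF-2α, had 16.7 and 14.1 CPM under siE1 and 55.5 and 52.6 CPM under siE2, with 20.4 and 21.2 CPM under siC (-1.81). ADM, adrenomedullin, was at -1.16. In the list of ATF4 and unfolded protein response genes (9 of 30 higher and 12 lower), the chaperone CALR was at -0.58 and HSPA5, BiP, at 0.47. Among genes linked to p53, TP53INP1 had 6.64 and 6.99 CPM under siE1 and 25.5 and 26.2 CPM under siE2, with 3.65 and 3.34 CPM under siC (-1.92, edgeR adjusted p = 8.7e-10), against 2.01 for CDKN1A and 1.75 for BTG2, so that members of 1 list stood near both ends.

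Matrix genes and matrix proteases were mostly lower under siE1. Of the TGF-β and integrin lists 50% and 51.5% were lower, beside 28.6% of all tested genes. Their higher shares were 26.7% and 33.3%, beside 28.5%. Of the extracellular matrix list, 6 of 44 tested members were higher under siE1 (13.6%) and 28 lower (63.6%), with a median of -0.37. FN1, fibronectin, had 70.6 and 80.4 CPM under siE1 and 208 and 219 CPM under siE2, with 133 and 105 CPM under siC (-1.50, edgeR adjusted p = 1.0e-08). LOX, which cross-links collagen, had 21.7 and 22.2 CPM under siE1 and 79.1 and 69.3 CPM under siE2, with 21.5 and 19.5 CPM under siC (-1.76). THBS1, thrombospondin, had 246 and 249 CPM under siE1 and 591 and 532 CPM under siE2, with 285 and 266 CPM under siC (-1.19), with 69.6 and 89.5 CPM under siE3. In LOX siE1 was at the control level and siE2 far above, and in FN1 the control lay between. SPARC, a matrix glycoprotein, was the other way round, with 15.4 and 16.6 CPM under siE1 and 5.53 and 5.35 CPM under siE2, with 5.48 and 6.3 CPM under siC (1.56, edgeR adjusted p = 2.3e-08). Of matrix proteases and inhibitors, 5 of 34 tested members were higher under siE1 (14.7%) and 19 lower (55.9%), with a median of -0.28. Beside TIMP3, the urokinase PLAU had 99.2 and 94 CPM under siE1 and 160.3 and 164 CPM under siE2, with 113 and 125 CPM under siC (-0.75), and ADAMTS6 was higher, at 0.60.

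Of the TGF-β list, 8 of 30 tested members were higher under siE1 (26.7%) and 15 lower (50%), with a median of -0.24. The ligand TGFB2 had 56.7 and 56.9 CPM under siE1 and 142 and 131 CPM under siE2, with 37 and 35.1 CPM under siC (-1.26, edgeR adjusted p = 5.5e-10), and the ligand BMP4 had 8.49 and 7.95 CPM under siE1 and 28.9 and 24.4 CPM under siE2, with 10.5 and 7.71 CPM under siC (-1.70). The receptor TGFBR1 was higher under siE1, with 116 and 113 CPM under siE1 and 61.7 and 54.4 CPM under siE2, with 27.3 and 30.9 CPM under siC (0.97, edgeR adjusted p = 7.8e-09). In TGFB2 and TGFBR1 all siE1 and siE2 libraries lay above both siC libraries. Integrins and focal adhesion genes stood at 11 of 33 higher and 17 lower (median -0.20). ITGA3 had 463 and 489.7 CPM under siE1 and 867 and 829 CPM under siE2, with 360.4 and 353 CPM under siC (-0.83), the kinase PTK2 was at -0.59, and the kinase SRC was higher, with 68.3 and 71.6 CPM under siE1 and 35.1 and 32.6 CPM under siE2, with 29.8 and 29.7 CPM under siC (1.05, edgeR adjusted p = 3.8e-09). Of the actomyosin cytoskeleton 11 of 42 higher and 18 lower were called, with the tropomyosins TPM4 at -1.32 (edgeR adjusted p = 9.2e-12) and TPM1 at -0.94 and the myosin light chain MYL12A at -1.10. YAP and TAZ target genes had 6 of 28 higher and 13 lower. Among the kinesin motors (15 of 32 higher and 6 lower, or 3 lower without either siE2 library), KIF3B had 66 and 64.5 CPM under siE1 and 214 and 204 CPM under siE2, with 235 and 227 CPM under siC (-1.68), and 66.7 and 70.5 CPM under siE3.

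Cytokine and NF-κB genes were more often higher under siE1. In this list 15 of 30 tested members were higher under siE1 (50%) and 2 lower (6.67%), with a median of 0.32. The cytokine IL11 had 62.7 and 50.3 CPM under siE1 and 21.1 and 21.3 CPM under siE2, with 13 and 18.3 CPM under siC (1.41, edgeR adjusted p = 1.8e-07), and the NF-κB subunits NFKB2 and NFKB1 were at 0.73 and 0.51. CSF1, the macrophage growth factor, was lower, with 56.5 and 49.1 CPM under siE1 and 147 and 121 CPM under siE2, with 37 and 38.8 CPM under siC (-1.35). The list's median moved between 0.19 and 0.48 when siE1 replicate 1 or either siE2 library was left out. Immediate early genes had 10 of 25 higher and 1 lower, with MAFF at 1.49 (edgeR adjusted p = 1.8e-09) and BTG2 at 1.75. Interferon response genes (10 of 39 higher and 10 lower) were near the background. Their counts moved to 6 higher with DESeq2 or without siE2 replicate 2, and to 5 lower without siE2 replicate 1. EIF2AK2, the double-stranded RNA sensor PKR, had 63.3 and 64 CPM under siE1 and 33.7 and 36.5 CPM under siE2, with 69.7 and 67.6 CPM under siC (0.86, edgeR adjusted p = 2.5e-08). ISG15 was at 0.54 and STAT2 at -0.82.

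The machinery of RNA interference and of microRNA processing differed as well. Of its 19 tested genes 11 were higher and 6 lower under siE1 (median 0.20). DROSHA, the nuclear nuclease of microRNA processing, had 105 and 116 CPM under siE1 and 170.4 and 176 CPM under siE2, with 201 and 195 CPM under siC (-0.64, edgeR adjusted p = 6.2e-08). XPO5, the exporter of microRNA precursors, had 208 and 207 CPM under siE1 and 140.0 and 144 CPM under siE2, with 279 and 278 CPM under siC (0.55). EIF2C2, now AGO2, the Argonaute that cleaves its target, had 99.7 and 101 CPM under siE1 and 86.8 and 87.6 CPM under siE2, with 107 and 105 CPM under siC (0.20, edgeR adjusted p = 0.0017). In XPO5 and DROSHA both siRNAs were under siC. DICER1 was at -0.43 and its partner TARBP2 at 0.74.

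Mesenchymal and epithelial markers were called in both directions, while the called basal markers were all lower under siE1. Of 10 tested mesenchymal markers 2 were higher and 4 lower. SNAI2, a transcription factor of epithelial to mesenchymal transition, had 17.6 and 15.4 CPM under siE1 and 47.1 and 46 CPM under siE2, with 8.63 and 11.4 CPM under siC (-1.50, edgeR adjusted p = 7.8e-09), while VIM was at 0.20. Of 15 tested epithelial markers 3 were higher and 5 lower (3 lower without siE2 replicate 1), with the keratin KRT7 at -1.33 and the claudins CLDN4 at 0.58 and CLDN7 at -0.43. Keratin genes have close copies. Of 8 tested basal markers 0 were higher and 5 lower (62.5%, beside 28.6% of all tested genes). CAV1 was at -0.59 (edgeR adjusted p = 1.5e-08) and the myosin kinase MYLK at -0.52. Of the 2 tested blood cell markers CD68 had 415 and 432 CPM under siE1 and 294 and 289.7 CPM under siE2, with 214 and 226 CPM under siC (0.54), and the part of other cells in any difference was not tested. The endothelial markers TIE1 (-0.73) and ESAM (0.64) differed in opposite directions.

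With genes that held any of the 4 leading words left out, which was chosen after the words had been seen, the lists were counted again. Only some of the lists are given here. Of 71 ribosomal protein genes without a word 61 were higher and 0 lower (median 0.24). Of 32 replication genes 30 were higher and 0 lower (0.36), of 30 nucleolar genes 23 and 1 (0.28), and of 36 mitosis genes 26 and 6 (0.27). Of 34 matrix genes 5 were higher and 20 lower (-0.34), and of 22 matrix proteases 4 and 11 (-0.29). In other lists the median changed sign, from -0.07 to 0.09 for autophagy (21 genes without a word) and from 0.15 to -0.04 for NRF2 targets (14 genes). It also did so for cholesterol synthesis (0.07 to -0.03), fatty acid synthesis (-0.06 to 0.01) and epithelial markers (0.003 to -0.08). The median of ERRα targets moved from 0.11 to 0.29, with 9 of 15 genes higher and 3 lower. Among the 8711 genes without a word, 29% were higher and 27.7% lower. Leaving out exact words in 1 transcript per gene does not leave out shorter matches or other words. Whether the words account for the differences of the lists was not tested.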

How the data were processed

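RNA-seq libraries came from MDA-MB-231 cells transfected with siE1, siE2, siE3 or siC, 2 libraries each. The authors' deposited table holds raw counts per gene symbol, per the file headers. Its totals ran from 21835995 to 25880548 counts per library, and symbols with few counts are accordingly less precise. TopHat 1.3.3, HTSeq, DESeq and the build hg19 are named in the submitters' processing notes. Strand setting and annotation: not given in the sources used here. Reads of overlapping and antisense genes therefore cannot be told apart.

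The table lists 23368 symbols, 5492 of them at 0 throughout. After filterByExpr in edgeR 4.0.16 (R 4.3.3), 13395 were tested. Counts were scaled by TMM (factors 0.980 to 1.02) and fitted by glmQLFit over all 8 libraries with a mean per siRNA, which left 4 residual degrees of freedom (common dispersion 0.00166, a coefficient of variation of 4.08%). The contrast siE1 minus siE2 was tested by glmQLFTest, with Benjamini-Hochberg adjustment over all tested genes and a threshold of 0.05. Values against siC come from the same fit and share its siC libraries. SE is the log2 difference divided by the root of F. Levels in the text are CPM, and a mean has n = 2. The test and the word search were tested on simulated data. In simulated counts the test recovered 34.7% of seeded log2 differences of 0.25, 79.6% of those of 0.5 and 94% of those of 1, and 6.21% of its calls were false. Far fewer genes were shifted there than were called in the data. A word seeded with a shift of -0.15 ranked first in 20 of 20 runs.

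Genes were named by rule: ESRRA and its paralogs, the 12 highest and 12 lowest differences among called genes with a mean of 5 CPM and no overlap between siE1 and siE2 libraries, the 6 of each direction with siC between, and up to 4 members per list with the smallest p. PPARGC1A, PPRC1, NCOA3, NCOR1, COX5A, CS, SDHB, MDH2, VEGFA, EIF2C2 and DICER1, and MIR663B and INSC, were named after their values had been seen. The members and lists were chosen with earlier results of these data known. Gene names newer than the table's come from RefSeq.

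The word search used 3′ UTRs of GENCODE v29 principal transcripts, the longest where there were several (Python 3.11.15, numpy 2.4.6, pandas 2.3.3). Alternatives were DESeq2 1.42.0 size factors and its Wald test, limma 3.58.1 voom, library size only, no or a stricter filter (a mean of 1 CPM and 50 counts), the 4 libraries alone, a replicate block, a fold limit of 1.5 and each library left out. Plots were drawn with matplotlib 3.10.9.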

Additional observations from a re-analysis of the deposited data

How the results depend on the processing

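The count of 7654 genes stayed between 6354 and 8899 over 17 other settings of scaling, filter, test, samples and block, and 2556 genes (1030 higher, 1526 lower) were left at 1.5-fold. DESeq2 called 6429, limma-voom 7649 and the 4 libraries alone 7837. With library size only, 45.3% of the called genes were higher, against 49.9%. ESRRA ranged from 0.23 (without siE2 replicate 2, edgeR adjusted p = 0.14) to 0.53 (without siE2 replicate 1), and the cause was not tested. Where a group is left with 1 library, that library is assumed to vary like the other groups. Sample titles give the siRNA and a replicate number and do not state a pairing. The deviations of same-numbered siE1 and siE2 libraries correlated at 0.106 over genes. Other pairs of groups ran from -0.183 (siE1 with siC) to 0.0401 (siE3 with siC). With 2 libraries per group these values can neither show nor exclude a pairing. With a replicate block 7300 genes were called over 8 libraries and 8899 over 4, and ESRRA stood at 0.37 in both. Of 208 named genes, 6 lost their call in at least 1 setting, with 0 reversals: KRT18, GATA3, CD14, COL3A1, PDGFRB and ESRRA. List counts moved by over 1.5 times in 112 of 1800 cases and medians moved in 42 of 850. The 1800 cases include the recount without genes that held a leading word, which leaves out members and is no processing setting. The 850 do not include it.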

Other observations

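The 2 symbols INSC and MIR663B, outside the naming rule, singled out after their values had been seen, had 0 counts in both siE2 libraries and yet passed the threshold. INSC, whose product orients the mitotic spindle, had 26 and 25 counts under siE1, 0 and 0 under siE2, 3 and 0 under siE3 and 1 and 0 under siC (edgeR adjusted p = 2.3e-05). It was at least 16-fold higher under siE1 than under siE2, taking 3 counts over the siE2 libraries together as the limit that a count of 0 allows. MIR663B had 0 and 179 counts under siE1, 0 and 0 under siE2, 0 and 86 under siE3 and 117 and 0 under siC (edgeR adjusted p = 0.038). Its counts came from 1 library of each of 3 groups, so the call between siE1 and siE2 rests on siE1 replicate 2 alone.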
